A study of Mus musculus with 8 samples.

Results

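The genes described here are 10 lysosomal peptidase genes, the cathepsins Ctsa, Ctsb, Ctsc, Ctsd, Ctsh, Ctsk, Ctsl, Ctss and Ctsz and the legumain gene Lgmn. They were chosen by name, with earlier results of these data known. All 10 were found once in each of the 2 deposited tables, which list 54532 and 28229 genes. RNA-seq was performed on 8 libraries of mouse brain taken on Day 21, from mice of C57BL/6 background that were male by the study's methods. The PTS + RS group had a photothrombotic stroke, a light-induced clot of cortical vessels, and then restraint stress, whereas the RS group had restraint stress without stroke, and both are labelled cortex (n = 2 libraries each). The other 4 libraries came from PTS + RS mice, 2 given RGFP109 and 2 labelled NaCl. RGFP109, a histone deacetylase inhibitor that the study used against HDAC3, was injected under the skin once a day for 2 weeks at 60 mg/kg in a vehicle holding DMSO and a cyclodextrin, while the control label names NaCl only. In both of these groups replicate 1 is labelled cortex and replicate 2 amygdala. The labels give no age for the mice, and the number of mice in a library is not given in the sources used here, so the p-values below measure the spread between these libraries, which may be technical.

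Cathepsins are proteases of the lysosome, the acid compartment in which cells break down proteins, and they are made as inactive precursors that are cut into their active form. Most are cysteine proteases related to papain, while cathepsin D is an aspartic protease and cathepsin A a serine carboxypeptidase. Legumain cuts after asparagine and also matures several cathepsins. In the brain, neurons and glia all carry lysosomes, but phagocytic cells such as microglia are known for a high content of these enzymes.

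Each library held between 15902013 and 21712033 counts, of which the 10 genes took 0.0968% to 0.328%. The region labels were set against marker genes, each sum in CPM (counts scaled to a common library size after TMM normalization). The sum over 8 cerebral cortex markers was 428 to 638 CPM in the PTS + RS and RS libraries, 629 and 767 CPM in the cortex-labelled libraries of the RGFP109 table and 1184 and 1403 CPM in the amygdala-labelled ones, so cortex markers were higher in libraries labelled amygdala. Amygdala markers summed to 46.6 and 53.0 CPM in the amygdala-labelled libraries, between the cortex-labelled values of 19.4 and 76.4 CPM, while striatal markers summed to 1373 and 1514 CPM against 214 and 257 CPM. Olfactory bulb markers summed to 1476 CPM in the cortex-labelled NaCl library and to 23.3 to 49.0 CPM in the other 7 libraries. Choroid plexus markers summed to 1663 and 52.1 CPM in the PTS + RS libraries, 1877 and 3906 CPM in the RS libraries, 15.8 and 18.5 CPM in the amygdala-labelled libraries, and 1544 CPM in the cortex-labelled RGFP109 library against 45.7 CPM in its NaCl partner. The libraries are therefore named by their labels, as cortex-labelled or amygdala-labelled.

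The promoter windows of 4 genes are shown. Ctss and Ctsd had the highest fold changes below, and Ctsk, the neighbour of Ctss, was the one gene not called higher. Ctsa carries a pair of E-boxes around the downstream one of its 2 RefSeq starts, and this window was picked for these matches. The window of its upstream start, which lies beside the deposited start of the gene, held 0 such matches and is not shown. The sequences are from RefSeq on build GRCm38.p6, 5′ to 3′ on the strand of the gene. Each has 270 bases, from 250 bases before to 20 bases after the RefSeq start. For Ctsd and the Ctsa window shown, this start lies inside the deposited gene bounds given below, and for Ctsk it lies upstream of them. Most of the Ctsd window therefore lies within those bounds. Capitals mark CACGTG, the core of the E-box bound by TFEB-type factors of lysosomal genes, in Ctsd and Ctsa, and GAGGAAG or its complement, a core bound by PU.1 of myeloid cells, in Ctss and Ctsk.
Ctss, chr3:95526536-95526805, plus strand: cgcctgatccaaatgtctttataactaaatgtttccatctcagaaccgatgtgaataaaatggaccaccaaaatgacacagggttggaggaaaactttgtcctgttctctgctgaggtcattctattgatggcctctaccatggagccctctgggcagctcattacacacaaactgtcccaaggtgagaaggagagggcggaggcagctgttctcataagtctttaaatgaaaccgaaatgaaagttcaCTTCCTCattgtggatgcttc
Ctsk, chr3:95498960-95499229, plus strand: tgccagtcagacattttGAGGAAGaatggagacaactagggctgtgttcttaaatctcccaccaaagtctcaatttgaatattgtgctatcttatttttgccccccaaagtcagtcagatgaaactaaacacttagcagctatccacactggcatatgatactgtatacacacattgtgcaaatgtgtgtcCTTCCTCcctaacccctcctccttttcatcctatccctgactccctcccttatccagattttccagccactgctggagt
Ctsd, chr7:142387808-142388077, minus strand: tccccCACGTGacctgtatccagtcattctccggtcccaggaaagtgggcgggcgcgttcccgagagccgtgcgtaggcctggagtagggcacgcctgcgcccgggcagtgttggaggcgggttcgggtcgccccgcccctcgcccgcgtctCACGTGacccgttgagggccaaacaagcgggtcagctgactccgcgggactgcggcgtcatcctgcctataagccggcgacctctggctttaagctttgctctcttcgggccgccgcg
Ctsa, chr2:164833523-164833792, plus strand: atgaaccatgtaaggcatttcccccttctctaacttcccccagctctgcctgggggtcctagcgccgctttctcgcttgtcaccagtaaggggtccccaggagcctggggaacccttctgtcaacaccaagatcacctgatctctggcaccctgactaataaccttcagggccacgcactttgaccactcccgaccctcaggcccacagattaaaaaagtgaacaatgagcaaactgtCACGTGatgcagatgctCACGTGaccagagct

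RefSeq windows were matched for 8 of the 10 genes, with 2 starts each for Ctsa and Lgmn, which gave 10 windows. Ctsb and Ctsh had no entry. Over the full window of 300 bases, to 50 bases after the start, CACGTG (which reads the same on both strands) was found in Ctsd, Ctsl and in 1 of the 2 windows each of Ctsa and Lgmn, and in 7.15% of all 32851 windows of this length. GAGGAAG on either strand was found in Ctss, Ctsc and Ctsk, and in 13.6% of all windows. The window of Ctsd held 33 CpG dinucleotides, those of Ctss and Ctsk 5 and 2, against a median of 7 over all windows. These matches are a description of letters in the windows.

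The first comparison asked how cortex after stroke and stress differed from cortex after stress alone. The study describes the tissue it sequenced as damaged cortex, and in a figure legend as cortex near the damage. PTS + RS cortex at or near the lesion was thus set against RS cortex without a stroke. Of the 10 genes, 9 were higher in the PTS + RS group with an adjusted p under 0.05 (edgeR's quasi-likelihood test, Benjamini-Hochberg adjustment over 17581 genes), and 2.96% of all tested genes were called higher in this way. No member was called lower, against 0.586% of tested genes. Since the genes were chosen with earlier results of these data known, these shares are a description and not an independent test. All 9 had a log2 fold change of at least 1, a call made for 2.12% of tested genes, and none of them overlapped between the groups, as was true of 25.7% of tested genes in this direction. The median log2 fold change was 1.29 over the 10 genes and -0.0015 over all tested genes. Together the 10 genes took 3213 and 2657 CPM in the PTS + RS libraries and 971 and 1014 CPM in the RS libraries. In such bulk tissue, more cells of a type cannot be told apart from more RNA per cell. Choroid plexus markers summed lower in both PTS + RS libraries (1663 and 52.1 CPM) than in both RS libraries (1877 and 3906 CPM). The part of this difference in the protease values was not tested. Leaving out each library gave medians of 1.16 to 1.42 for the 10 genes. Each of those fits has a lone library on 1 side and keeps the choroid plexus difference, so it cannot bear on it.

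**Figure D1:**
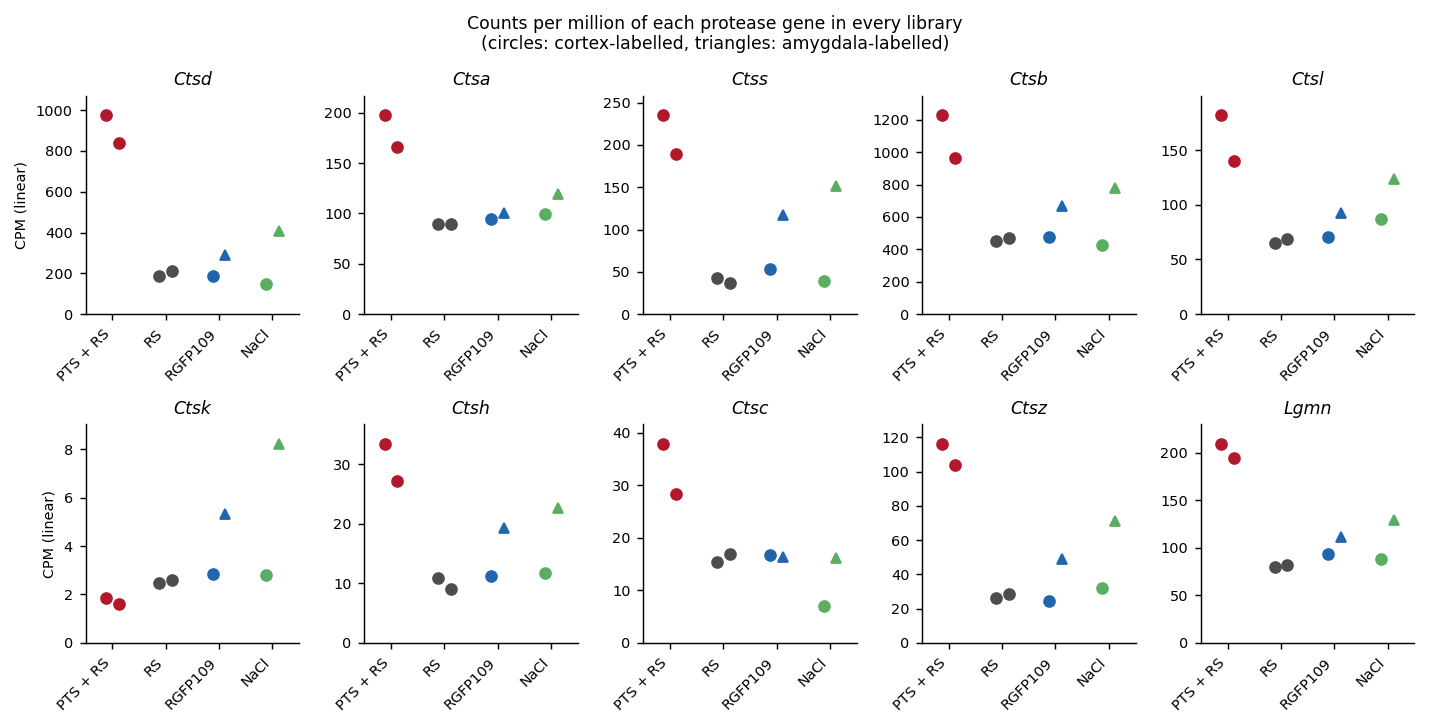
CPM (linear axes from 0) of the 10 genes in each of the 8 libraries, grouped as PTS + RS, RS, RGFP109 and NaCl, with circles for cortex-labelled and triangles for amygdala-labelled libraries. Both PTS + RS libraries lie above both RS libraries for 9 genes, for example at 235 and 189 against 43.0 and 36.2 CPM for Ctss, and below them for Ctsk.

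Ctsd, which encodes the aspartic protease cathepsin D, a main endopeptidase of the lysosome (ENSMUSG00000007891, chr7:142375911-142388038, minus strand), was at 974 and 839.7 CPM in the PTS + RS libraries and at 185 and 210.4 CPM in the RS libraries. Both stroke libraries lay far above both stress libraries, and the log2 fold change was 2.20 ± 0.12 (SE, edgeR adjusted p = 3.8e-04, n = 2 per group). Ctsd shares 6757 bases with the predicted gene Gm49369 on the same strand, which had 0 counts in these 4 libraries. How the counting treated reads lying in both genes is not given in the sources used here. These 0 counts therefore do not tell whether Ctsd lost reads there. The promoter window of Ctsd, shown above, holds 2 copies of CACGTG.

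Among the papain-like endopeptidases, Ctss (ENSMUSG00000038642, chr3:95526786-95556403, plus strand) had the highest fold change of the 10 genes. Its product, cathepsin S, is known for trimming the invariant chain of MHC class II in antigen-presenting cells and stays active at neutral pH. Ctss was at 235 and 189 CPM in the PTS + RS libraries and at 43.0 and 36.2 CPM in the RS libraries, a log2 fold change of 2.42 ± 0.13 (SE, edgeR adjusted p = 3.8e-04). The groups were separated by far more than the distance between replicates. Ctsb (ENSMUSG00000021939, chr14:63122462-63145923, plus strand), which encodes a protease with both endopeptidase and dipeptidyl carboxypeptidase activity, was at 1227 and 967 CPM against 453 and 469 CPM (log2 fold change 1.25 ± 0.13, SE, edgeR adjusted p = 0.0035). Ctsl (ENSMUSG00000021477, chr13:64359337-64370890, minus strand), which encodes a general lysosomal endopeptidase, was at 182 and 140.2 CPM against 65.4 and 69.1 CPM (log2 fold change 1.26 ± 0.13, SE, edgeR adjusted p = 0.0033). For both genes PTS + RS replicate 1 was the highest library, and the PTS + RS replicates differed more from each other than the RS replicates did. Ctsb shares 774 bases with Fdft1 on the opposite strand, which had 869 to 1133 counts per library against 7432 to 21025 for Ctsb.

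Ctsk (ENSMUSG00000028111, chr3:95499256-95509362, plus strand) encodes cathepsin K, the collagen-degrading protease best known from osteoclasts, and lies 17423 bases upstream of Ctss on the same strand. It had few reads, with 32 and 27 counts in the PTS + RS libraries and 45 and 41 counts in the RS libraries. In CPM these were 1.87 and 1.62 against 2.48 and 2.59, so the stroke libraries lay below the stress libraries without overlap. The log2 fold change of -0.54 ± 0.30 (SE) did not pass the test (edgeR adjusted p = 0.40), and its 95% confidence interval ran from -1.24 to 0.17. That interval lies below those of the other 9 genes, whose lowest bound was 0.66 in Ctsc. The share of tested genes that lay lower without overlap was 24.5%.

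The genes of the exopeptidases rose as well. Ctsz (ENSMUSG00000016256, chr2:174427493-174439039, minus strand), which encodes the carboxypeptidase cathepsin Z, also called cathepsin X, was at 116 and 104 CPM in the PTS + RS libraries against 26.5 and 28.8 CPM in the RS libraries, with a log2 fold change of 1.99 ± 0.10 (SE, edgeR adjusted p = 3.8e-04). Ctsh (ENSMUSG00000032359, chr9:90054152-90076089, plus strand), which encodes an aminopeptidase, was at 33.3 and 27.2 CPM against 10.9 and 8.96 CPM, with a log2 fold change of 1.60 ± 0.16 (SE, edgeR adjusted p = 0.0034). Their fitted folds were 3.98 and 3.04, and in both genes the groups lay well apart. Ctsc (ENSMUSG00000030560, chr7:88278085-88310888, plus strand), whose product is a dipeptidyl peptidase that activates granule serine proteases of leukocytes, was at 37.8 and 28.3 CPM against 15.3 and 16.9 CPM. Its log2 fold change of 1.04 ± 0.16 (SE) had the highest adjusted p of the 9 called genes (edgeR adjusted p = 0.019). Ctsa (ENSMUSG00000017760, chr2:164832873-164841032, plus strand) encodes the serine carboxypeptidase that protects β-galactosidase and neuraminidase in the lysosome, and was at 197 and 166 CPM against 89.2 and 89.7 CPM (log2 fold change 1.02 ± 0.10, SE, edgeR adjusted p = 0.0027). The RS replicates of Ctsa were nearly equal, and the spread of this gene came from the PTS + RS libraries. Ctsa shares 1515 bases with Pltp on the opposite strand, and how the counting treated strand is not given in the sources used here. Pltp had 677 to 1044 counts per library, with 974 and 677 in the PTS + RS libraries and 1044 and 941 in the RS libraries, against 1422 to 3381 for Ctsa.

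Lgmn (ENSMUSG00000021190, chr12:102394084-102439813, minus strand), the gene of legumain, was at 209 and 194 CPM in the PTS + RS libraries and at 80.0 and 82.2 CPM in the RS libraries. The distance between groups was much larger than that between replicates, and Lgmn had the smallest SE of the 10 genes (log2 fold change 1.32 ± 0.08, SE, edgeR adjusted p = 4.6e-04).

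**Figure D2:**
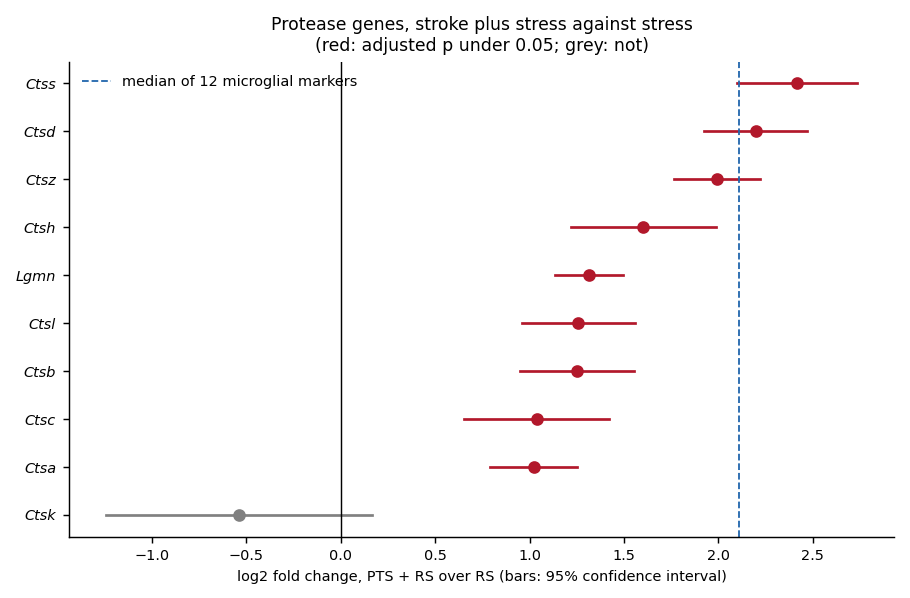
Log2 fold change of each gene, PTS + RS over RS, with its 95% confidence interval from edgeR (n = 2 libraries per group), in red where the adjusted p is under 0.05 and in grey otherwise. The dashed line is the median of 12 microglial markers at 2.11, which lies inside the intervals of Ctss, Ctsd and Ctsz and above those of the other 7 genes. The 12 markers ran from 1.02 to 2.84.

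Markers of microglia, the resident macrophages of the brain, moved with these genes. All 12 were higher past the threshold, led by Trem2 (log2 fold change 2.84), C1qb (2.78), C1qc (2.69) and C1qa (2.61), with a median log2 fold change of 2.11 and summed levels of 1426 and 1664 CPM in the PTS + RS libraries against 333 and 370 CPM in the RS libraries. Their part in the change of the proteases was not tested. Ctss was 0.31 above this median on the log2 scale, Ctsd 0.09 above it and Ctsz at -0.12 relative to it. The other 6 called genes lay between -0.51 (Ctsh) and -1.09 (Ctsa) relative to it, and Ctsk at -2.65. The markers themselves ran from 1.02 to 2.84, a range that held the log2 fold changes of all the called proteases. Of the border macrophage markers, 2 of the 7 tested were higher by edgeR, Ms4a7 with a log2 fold change of 3.89 and Stab1 with 2.17. DESeq2 called 3 of them and limma-voom 1. The summed level of the list was 121 and 168 CPM against 35.8 and 39.7 CPM. Most of this sum was Stab1, with a mean of 118 CPM in the PTS + RS group and 26.2 CPM in the RS group. Of 10 astrocyte markers 5 were higher, led by the filament gene Gfap with a log2 fold change of 2.27, Aqp4 with 1.01, S100b with 0.73 and Slc1a3 with 0.59, and the median of the list was 0.48. Monocyte and neutrophil markers summed to 1.80 and 2.16 CPM in the PTS + RS libraries and 0.25 and 0.39 CPM in the RS libraries, and lymphocyte markers to at most 1.46 CPM in these 4 libraries. No gene of either list had enough counts to be tested. Markers of neurons, oligodendrocytes, endothelial cells, fibroblasts and choroid plexus had medians of -0.11, 0.22, 0.24, -0.12 and -1.87, and edgeR called none of them (1, 4, 2, 0 and 4 had an unadjusted p under 0.05). DESeq2 and limma-voom each called 1 oligodendrocyte marker and no other of these. Of the region markers, the striatal gene Ppp1r1b fell by 0.78 on the log2 scale (edgeR adjusted p = 0.047). DESeq2 called 1 of the 10 striatal markers and limma-voom 0.

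**Figure D3:**
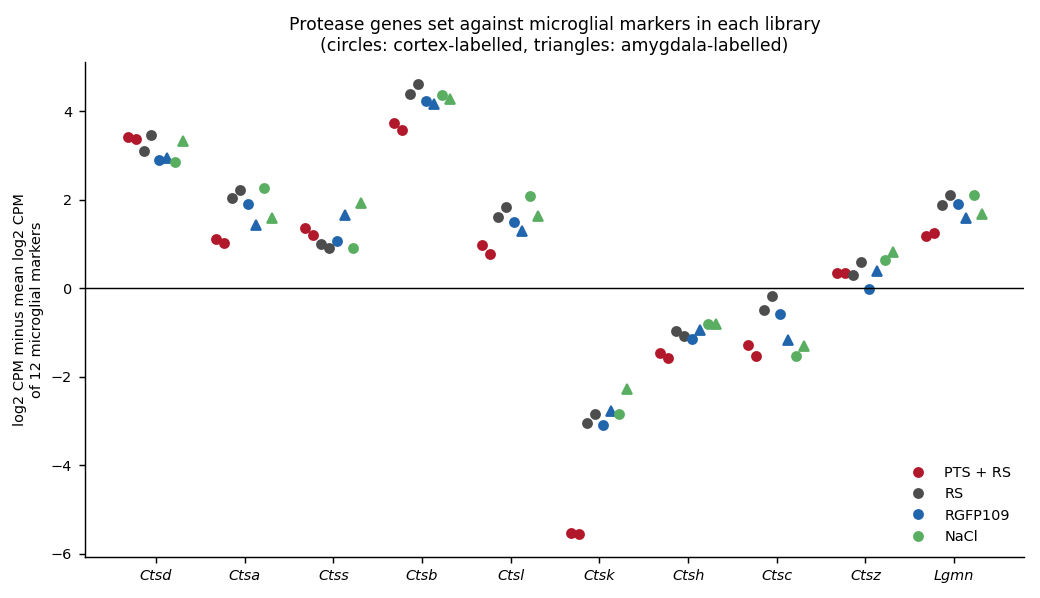
Log2 CPM of each gene minus the mean log2 CPM of 12 microglial markers in the same library (y axis), with 8 libraries per gene coloured by group, circles for cortex-labelled and triangles for amygdala-labelled libraries. The PTS + RS libraries are lowest for Ctsa, Ctsb, Ctsh, Ctsk, Ctsl and Lgmn (Ctsk at -5.53 and -5.56 against -3.05 and -2.83 in RS), while those of Ctss, at 1.36 and 1.21, lie above the RS libraries at 1.00 and 0.92.

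The make-up of the protease transcripts also differed between the groups. Levels of different genes were compared per length, in the deposited FPKM, which is scaled to gene length and library depth. The order and the shares therefore depend on the deposited lengths, such as 6489 bases for Ctsl, 6051 for Ctsb, 2351 for Ctsd and 1358 for Ctss. In CPM, without this scaling, Ctsb lay above Ctsd, at 1227 and 967 against 974 and 839.7 CPM in the PTS + RS libraries. The values in the RS libraries were 453 and 469 against 185 and 210.4 CPM. In the PTS + RS libraries the order was Ctsd (410.3 and 355 FPKM), Ctsb (201 and 159), Ctss (171 and 138), Lgmn, Ctsz, Ctsa, Ctsl, Ctsh, Ctsc and Ctsk (1.22 and 1.06), where Ctsb and Ctss overlapped, as did Ctsh and Ctsc. In the RS libraries the order was Ctsd (78.2 and 89.2 FPKM), Ctsb (74.5 and 77.2), Lgmn (34.2 and 35.2), Ctss (31.5 and 26.6), the overlapping pair Ctsz and Ctsa, then Ctsl, Ctsc, Ctsh and Ctsk (1.63 and 1.70). Ctsd made up 39.6% and 40.6% of the summed FPKM of the 10 genes in the PTS + RS libraries and 28.7% and 31.4% in the RS libraries. The share of Ctss was 16.5% and 15.8% against 11.6% and 9.35%, and that of Ctsb 19.4% and 18.1% against 27.4% and 27.2%. Shares of a total depend on each other, and no test was run on them.

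**Figure D4:**
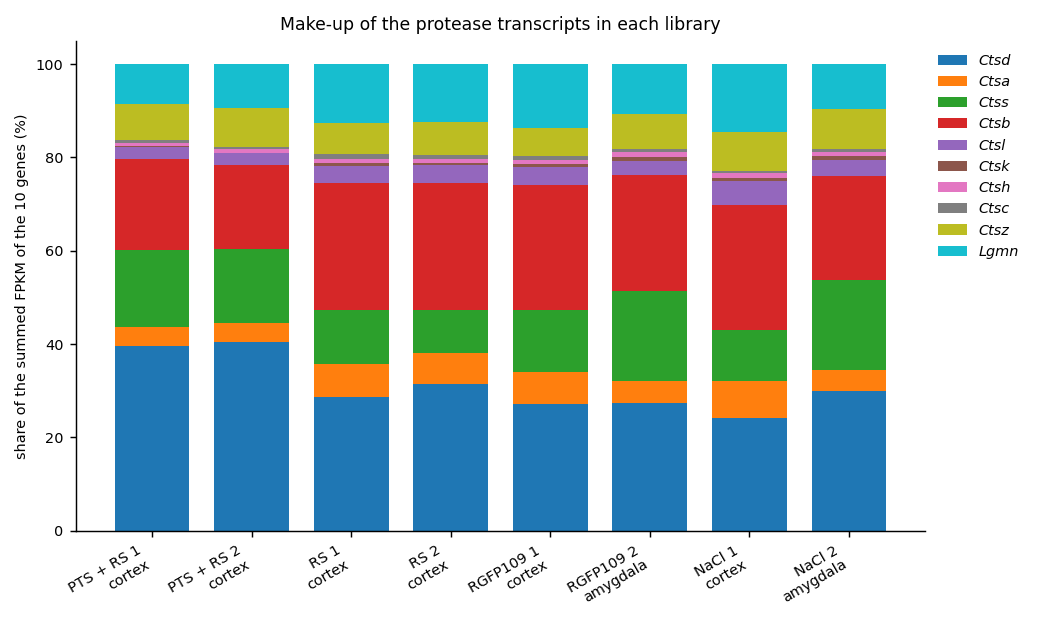
Share of each gene in the summed FPKM of the 10 genes (y axis, %, stacked to 100%) in each of the 8 libraries. Ctsd takes 39.6% and 40.6% in the PTS + RS libraries and 24.1% to 31.4% in the other 6.

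Other genes of the pathway were read from lists by role. Among 6 other cathepsin genes 4 were tested and none passed by edgeR, DESeq2 or limma-voom (1 had an unadjusted p under 0.05), the highest being Ctso with a log2 fold change of 0.40 and the lowest Ctsf with -0.0032. Ctsf was at 50.8 ± 0.23 CPM in the PTS + RS group and 50.9 ± 0.33 CPM in the RS group (SD, n = 2). The 9 placental cathepsins, a rodent cluster expressed in the placenta, had no count in any of these 4 libraries, where 3 counts, the limit that a count of 0 allows, are at most 0.19 CPM. Of 5 other lysosomal peptidases, Tpp1, which encodes tripeptidyl peptidase 1, rose with a log2 fold change of 0.57 (edgeR adjusted p = 0.04), and the list's median was 0.57. Of 9 genes for sorting enzymes to the lysosome, such as the mannose 6-phosphate receptors, none passed by any of these tools (2 had an unadjusted p under 0.05), with a median of -0.0057 and a range from -0.38 (Gga2) to 0.26 (Nagpa).

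Of the inhibitors, Cst7, which encodes cystatin F, an inhibitor of cathepsins in immune cells, had 322 and 290 counts in the PTS + RS libraries and 0 and 2 counts in the RS libraries. The ratio of the summed counts per library size was 307, with a 95% exact interval from 84.7 to 2542 that covers counting error only. The edgeR adjusted p was 3.8e-04. Cst3, which encodes the secreted inhibitor cystatin C, was at 942 ± 50.5 CPM in the PTS + RS group and 716 ± 3.61 CPM in the RS group (SD, n = 2), a log2 fold change of 0.40 that missed the threshold (edgeR adjusted p = 0.071). Of the 4 tested genes of this list 1, Cst7, passed by edgeR, and 2 each by DESeq2 and limma-voom.

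The partners and substrates gave no call among 7 tested genes by edgeR or limma-voom and 1 by DESeq2, and 3 had an unadjusted p under 0.05. Psap, the precursor of the saposins that cathepsin D cuts, had a log2 fold change of 0.12, Neu1 -0.02 and Glb1 0.43, the latter pair being the enzymes that cathepsin A protects. For the class II pathway that cathepsin S serves, Cd74, the invariant chain, was at 9.50 ± 5.06 CPM against 5.50 ± 0.64 CPM (SD, n = 2) and H2-Ab1 had a log2 fold change of 1.79 ± 0.41 (SE) with an edgeR adjusted p of 0.069, which was 0.043 with the replicate number as a block. Of the transcription factors, Spi1, which encodes PU.1, rose with a log2 fold change of 2.23 (edgeR adjusted p = 0.012) and Irf8 with 2.23 (edgeR adjusted p = 0.0014), both factors of myeloid cells. Tfeb, a regulator of lysosomal genes, had a log2 fold change of 0.44 and did not pass (edgeR adjusted p = 0.20).

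The second comparison asked whether RGFP109 changed these genes in PTS + RS mice. No member passed the threshold (edgeR, 17565 genes tested), and no gene in the table did, a background of 0%. DESeq2 and limma-voom gave 0 members as well, and 0 members had an unadjusted p under 0.05, against 0.501% of tested genes higher and 0.672% lower. The median log2 fold change was -0.17 over the 10 genes and -0.02 over all tested genes, and 1 of the 10, Ctsc, was fitted above 0, against 47.4% of all tested genes. The values ran from -0.48 (Ctsz) to 0.51 (Ctsc), none past the test, and intervals were wide, as from -2.04 to 1.73 for Ctss. The biological coefficient of variation over all genes was 32.1% here and 11.4% in the first comparison, and the libraries within a group carry different region labels. The median turned with the library left out, and no member passed in any of these fits. It was -0.59 without the cortex-labelled NaCl library, which held the olfactory bulb markers, and -0.57 without the amygdala-labelled RGFP109 library, but 0.05 without the cortex-labelled RGFP109 library and 0.42 without the amygdala-labelled NaCl library. Each of these fits sets a lone library of 1 region label against 1 of each label. The members were fitted higher in the amygdala-labelled libraries, as given below. The part of the region label in the turn of the median was not tested. The value of Ctsc was 0.02 without the cortex-labelled NaCl library and 1.24 without the amygdala-labelled one.

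Within each labelled region there was 1 library per treatment and hence no test. Ctss was at 52.8 CPM with RGFP109 and 38.9 CPM with NaCl in the cortex-labelled pair, and at 118 and 151 CPM in the amygdala-labelled pair. Ctsd was at 187 and 149 CPM in the cortex-labelled pair and at 288 and 405 CPM in the amygdala-labelled pair. For both genes the RGFP109 library was the higher one of the first pair and the lower one of the second. In the amygdala-labelled pair 9 of 10 genes were lower with RGFP109, with a median log2 ratio of -0.31, while 50.4% of all tested genes were lower and the microglial markers had a median of -0.02. The largest negative ratios there were -0.61 for Ctsk, -0.54 for Ctsz and -0.49 for Ctsd. In the cortex-labelled pair 6 of 10 genes were higher, with a median log2 ratio of 0.06, while 48.2% of all tested genes were higher and the microglial markers had a median of 0.30. Ctsc had the largest ratio there, 1.24 on the log2 scale, from 16.8 CPM with RGFP109 and 7.05 CPM with NaCl. The latter was the lowest value of Ctsc in the 8 libraries, in the library that held the olfactory bulb markers, whose part in it was not tested.

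**Figure D5:**
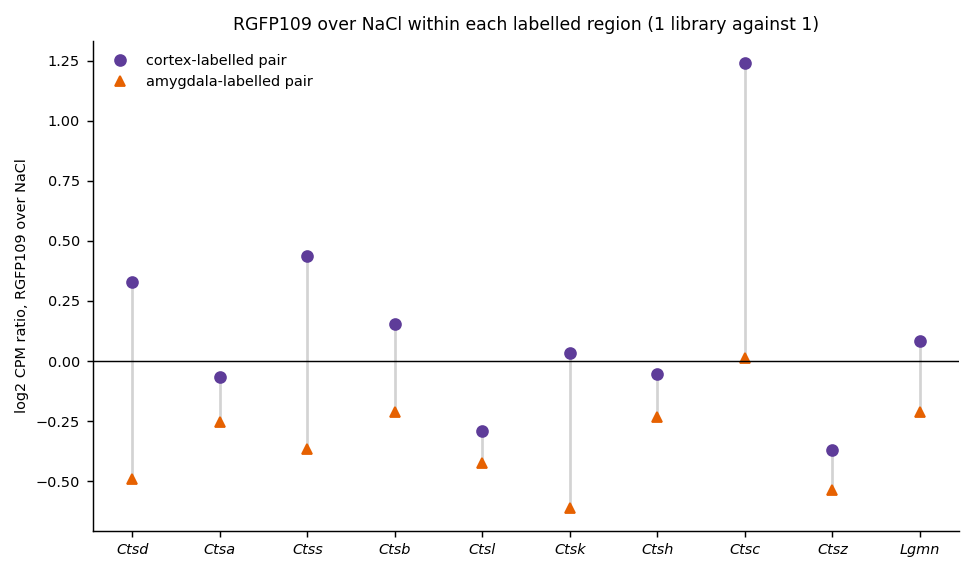
Log2 ratio of CPM, RGFP109 over NaCl (y axis), for each gene within the cortex-labelled pair (circles) and the amygdala-labelled pair (triangles), 1 library against 1. The triangles lie below 0 for 9 of 10 genes, down to -0.61 for Ctsk, and the circles lie between -0.37 (Ctsz) and 1.24 (Ctsc).

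The same 4 libraries were compared by region label, replicate 2 (amygdala-labelled) against replicate 1 (cortex-labelled) across treatments. All 10 genes were fitted higher in the amygdala-labelled libraries, against 46.7% of tested genes, with a median log2 fold change of 0.78 and -0.03 over all tested genes. None passed the threshold by edgeR, nor did any other gene (0%), although 7 had an unadjusted p under 0.05, as did 6.81% of tested genes in this direction. DESeq2 called 3 of them, Ctss, Ctsz and Ctsd, and 1.79% of tested genes higher, while limma-voom called 0 members and 0 genes. The groups did not overlap for 9 of the 10 genes, as for 21.6% of tested genes. The exception was Ctsc, at 16.4 and 16.3 CPM in the amygdala-labelled libraries and at 16.8 and 7.05 CPM in the cortex-labelled ones.

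Ctss had the largest difference by label, with 118 and 151 CPM against 52.8 and 38.9 CPM (log2 fold change 1.55 ± 0.23, SE, edgeR adjusted p = 0.23). Ctsk came next, with 114 and 151 counts, or 5.33 and 8.21 CPM, against 45 and 49 counts, or 2.85 and 2.79 CPM (log2 fold change 1.26 ± 0.32, SE, edgeR adjusted p = 0.32). By value only, since the tables were normalized separately, Ctsk was higher in both amygdala-labelled libraries than in any of the other 6, and lowest in the PTS + RS libraries. Microglial markers summed to 646 and 735 CPM in the amygdala-labelled libraries against 345 and 434 CPM, with a median log2 fold change of 0.62, border macrophage markers to 76.8 and 110.2 CPM against 54.3 and 61.4 CPM (median 0.79), and oligodendrocyte markers to 4521 and 5053 CPM against 3218 and 3268 CPM (median 0.47), none of them overlapping between the labels. Fibroblast markers, at 201 and 352 CPM against 179 and 228 CPM, overlapped. Striatal markers, given above, moved with the label too, and the part of any of these in the difference was not tested.

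The number of called genes in this comparison depended on the cortex-labelled libraries. It was 8 without the RGFP109 cortex-labelled library, where 15.1% of tested genes were called higher, and 7 without the NaCl one, where 8.27% were, each time with a lone library on the cortex-labelled side that was assumed to vary like the others. Without the NaCl cortex-labelled library the log2 fold change of Ctsc was -0.03, and without the RGFP109 cortex-labelled library it was 1.22 (edgeR adjusted p = 7.1e-06), against 0.45 with all 4.

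The NaCl libraries came from PTS + RS mice by their labels and could be set beside the first table by value only, since the tables were normalized separately. Ctss was at 28.3 FPKM in the cortex-labelled NaCl library, which lay in the range of the RS libraries (26.6 to 31.5 FPKM) and below both PTS + RS libraries (138 and 171 FPKM). The cortex-labelled RGFP109 library was at 38.8 FPKM and the amygdala-labelled libraries at 86.6 and 111 FPKM, between the groups of the first table. Ctsd was at 62.5 FPKM with NaCl and 79.4 FPKM with RGFP109 in the cortex-labelled libraries, against 78.2 and 89.2 FPKM in the RS libraries, and at 123 and 172 FPKM in the amygdala-labelled ones, against 410.3 and 355 FPKM in the PTS + RS libraries. The geometric mean of the 12 microglial markers was 20.6 and 25.2 CPM in the cortex-labelled libraries, 37.3 and 40.2 CPM in the amygdala-labelled ones, 19.2 and 21.6 CPM in RS and 81.6 and 91.8 CPM in PTS + RS.

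Across the 8 libraries the profiles of the genes were compared by the root mean square difference of their centred log2 CPM, as a description over libraries from 2 tables. The nearest pair of members was Ctsb and Lgmn, at 0.12 on the log2 scale, against a median of 0.45 over all pairs of members. Ctsa and Ctsl also had Lgmn as their nearest member (0.14 each), while Ctsd and Ctss both lay nearest to Ctsz (0.27 and 0.34). Ctsk was farthest from the others, at 0.90 from Ctsl. Each gene was compared with 16946 others, the other members included. Outside the members, the nearest to Lgmn was Hexa, a lysosomal hexosaminidase subunit (0.09), and to Ctss the complement gene C1qc (0.16). For Ctsz it was Ifi30, a lysosomal thiol reductase (0.11). The nearest to Ctsl was Tcirg1, a subunit of the proton pump (0.09), to Ctsd Lrrc25 (0.11), to Ctsb Slco2b1 (0.11), to Ctsa Tgfbr2 (0.09) and to Ctsh Osmr (0.11). Ctsc lay nearest to Hk2 (0.15) and Ctsk to Tcim (0.09).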

How the data were processed

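RNA-seq libraries of mouse brain were analysed in 4 groups of 2. By the study's methods and processing notes, the authors used STAR 2.4.0 for alignment to GRCm38 and HTSeq 0.6.1 for counting per gene, and the deposited counts are not normalized. The deposited FPKM values are these counts divided by gene length and by a factor for each library. The labels name a directional kit and the methods a different one. Also in the tables were 8 per-library columns of normalized values, not used here, and the authors' fold changes and p-values, which were not used either. The 2 tables were tested separately. Gene names of the second table were taken from its full list, and identifiers were assigned by genomic position from the first table.

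Genes passing filterByExpr were scaled by TMM and compared by edgeR's quasi-likelihood test (edgeR 4.0.16, R 4.3.3) with Benjamini-Hochberg adjustment over all tested genes. A gene was called at an adjusted p under 0.05. Each SE is the size of the log2 fold change divided by the square root of F. CPM are counts per TMM-scaled library size, and ratios of single libraries used a prior count of 2. DESeq2 1.42.0, limma-voom (limma 3.58.1), DESeq2 size factors, no filter, a fold limit, the replicate number as a block (treatment as a term in the region comparison) and leaving out each library were the alternatives. The steps were tested on simulated data. Figures were drawn with Python 3.11.15, pandas 2.3.3 and matplotlib 3.10.9. Replicates were compared over all genes, and the chi-square per gene, with 1 degree of freedom and thus about 1 under sampling noise alone, was 15 in PTS + RS, 4.87 in RS, 38 in RGFP109 and 82.7 in NaCl.

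The members and gene lists were chosen with earlier results of these data known. All 10 members were named. Of other lists, names were limited to genes past the threshold (at most the 4 largest), otherwise the highest and lowest fold, and the partners Cst3, Cst7, Psap, Cd74, Neu1, Glb1, Tfeb and Spi1, and not every gene so allowed was named.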

Additional observations from a re-analysis of the deposited data

Results flagged for a closer look

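For 5 genes the RGFP109 library was higher than the NaCl library in the cortex-labelled pair and lower in the amygdala-labelled pair. Of all tested genes 48.2% were higher in the first pair and 50.4% lower in the second, and the share doing both was not counted. The cortex-labelled log2 ratios were 0.44 for Ctss, 0.33 for Ctsd, 0.15 for Ctsb, 0.08 for Lgmn and 0.03 for Ctsk. That of Ctsk rests on 45 counts with RGFP109 and 49 with NaCl. The log2 ratio in the amygdala-labelled pair minus that in the cortex-labelled pair was -0.82 for Ctsd, -0.80 for Ctss, -0.65 for Ctsk, -0.37 for Ctsb and -0.30 for Lgmn. With 1 library per treatment and label, this difference was not tested. In the same pairs the microglial markers had median log2 ratios of 0.30 and -0.02, and the olfactory bulb markers summed to 1476 CPM in the cortex-labelled NaCl library against 41.3 CPM in its RGFP109 partner. The part of either in the difference was not tested.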

How the results depend on the processing

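For PTS + RS against RS, 9 genes were called under every alternative run, and the 90 alternative values of the 10 genes kept their direction and their side of the threshold. Leaving out each library gave medians of 1.16 to 1.42. The replicate block gave 9 members and a median of 1.28, while over all genes the block gave 687 genes higher and 228 lower against 521 and 103 without it. Deviations of same-numbered libraries correlated at 0.04 in this table and at 0.30 in that of RGFP109 and NaCl, where the number also marks the region label. Calls over all genes were 512 higher and 104 lower with DESeq2 size factors, 598 and 187 by DESeq2, 439 and 86 by limma-voom, 1119 and 716 with no filter, and from 339 and 32 (without RS replicate 2) to 1413 and 1278 (without PTS + RS replicate 2) when leaving out a library.

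For RGFP109 against NaCl, 0 members were called under every alternative run, and 14 of 90 values turned their direction. The replicate block gave a median of -0.11 and 0.033 for Ctss, and limma-voom gave 0.032 for Ctss. Leaving out each library gave medians of -0.59 to 0.42, with 0.05 without RGFP109 replicate 1 and 0.42 without NaCl replicate 2. The ranges were 0.02 to 1.24 for Ctsc, -0.45 to 0.44 for Ctsb, -0.78 to 0.69 for Ctsd, -0.61 to 0.40 for Ctsh, -1.002 to 0.57 for Ctsk, -0.85 to 1.14 for Ctss, -1.06 to 0.22 for Ctsz and -0.34 to 0.22 for Lgmn. Without NaCl replicate 2, 15 genes were called higher and 78 lower, and 0 in the other alternatives.

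For the region labels, DESeq2 called 3 members (314 genes higher and 102 lower in all, against 0 by edgeR), and leaving out a library gave 0 to 8 members, with 8 without RGFP109 replicate 1 (2831 and 2552 genes in all) and 7 without NaCl replicate 1 (1540 and 1025). With no filter 13 genes were called higher. The median ran from 0.67 to 0.89 and Ctsc from -0.028 to 1.22 over these fits. Treatment as a term gave 0 members. Apart from the fits on fewer libraries, the cause of these changes was not tested. Values of Ctsk rest on 27 to 151 counts per library.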
